A study of Mus musculus with 572 samples.

Results

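Among single mTEC-high of the thymus, the 60 cells with the highest summary level of 8 genes (10.5% of all cells) were taken as mTEC-low-like cells. They were thus chosen by measured expression. The 8 genes were Krt5, Col6a2, Tgfbi, Lifr, Boc, Antxr1, Myl9 and Slc27a3. The score of a cell was the mean of the authors' normalized values of these genes, which are on a natural log scale. The 60 cells comprised 46 EED-cKO cells, 15.2% of that genotype (87, 76, 63 and 77 cells in its 4 batches), and 14 Aire/EED-dKO cells, 5.2% of its genotype (88, 76, 38 and 67 cells). They are called members below, and each was set against the other cells of its own genotype. Because the same measurements chose the members, every difference is given as a description without a p-value.

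Both genotypes were neonatal C57BL/6 mice in which floxed EED was deleted by Foxn1-Cre, a driver active in the thymic epithelium of cortex and medulla alike. EED-cKO kept Aire, and Aire/EED-dKO lacked Aire as well, so no group here had an intact EED gene. Cells were sorted as EpCAM+, CD45-, Ly51- and high in MHC class II, 1 cell to a library, and sequenced by RamDA-seq, which covers total RNA over its full length without molecular identifiers. EED-cKO cells came from batches 3 and 4 (day 4 of age) and 8 and 9 (day 3), and Aire/EED-dKO cells from batches 1, 2, 6 and 7 (all day 4), so genotype and batch cannot be told apart. No label names the animal a cell came from, and each genotype was therefore 1 sample.

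Medullary thymic epithelial cells (mTECs) display self-antigens to developing T cells. Immature mTEC-low express basal keratins and the T cell attractant Ccl21a, while mature mTEC-high carry more MHC class II and costimulatory molecules and, for a time, Aire, the factor that drives many tissue-restricted genes. EED is a core subunit of the Polycomb repressive complex PRC2, which methylates histone H3 at lysine 27 and keeps developmental genes silent.

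One Aire/EED-dKO member of batch 7 went against its label. It held 1748 reads of Aire, 1665 per 1000000 reads (CPM) at 1049540 reads in total, whereas the next highest cell of its genotype stood at 324 CPM and the median cell at 7.11 CPM. Its score (1.3) placed it at rank 29 of the 60. The same cell held 96.5% of the reads of Ptprc, which encodes CD45, of all Aire/EED-dKO members (639 CPM). The ratios of Aire and Ptprc and the sums of thymocyte markers and Aire-driven genes are given below with and without this cell. Other Aire/EED-dKO values include it unless stated. No pair of cells shared all of their counts (0 cells).

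The score declined without a gap below the members. The cell of rank 1 scored 2.12 and came from Aire/EED-dKO batch 1, the cell of rank 60 scored 0.945, and the first cell left out scored 0.915. Within 0.1 of the edge lay 13 members and 3 other cells. The median score of the members was 1.26 in EED-cKO (0.945 to 1.86) and 1.3 in Aire/EED-dKO (0.947 to 2.12), against 0.297 and 0.145 in the other cells. These values are the selection itself.

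**Figure D1:**
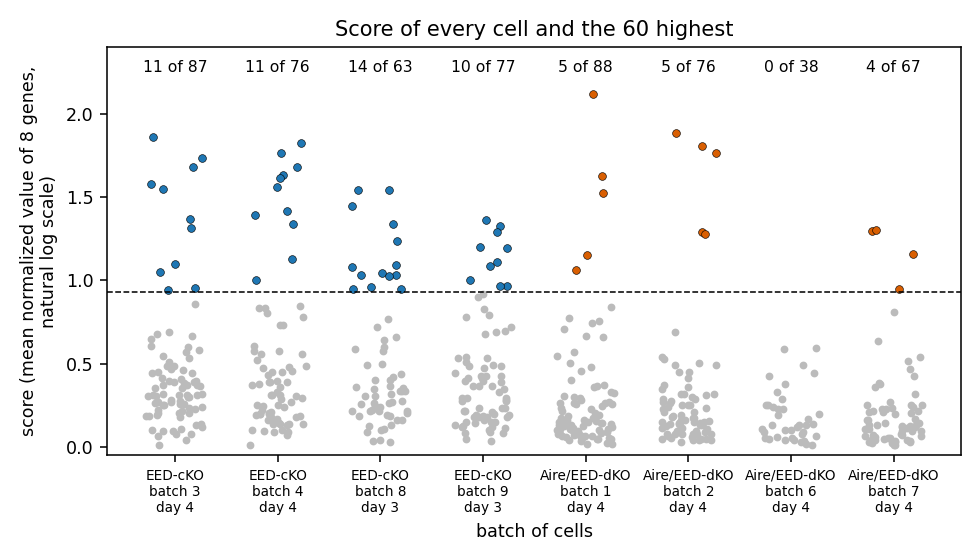
The score of every cell (vertical axis, natural log scale) by experimental batch, with the 60 members in color above the dashed edge and other cells in gray. Each of the 4 EED-cKO batches held 10 to 14 members, whereas 3 Aire/EED-dKO batches held 4 or 5 and batch 6 held none of its 38 cells.

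Members were found in 7 of the 8 batches. Among EED-cKO cells they made up 12.6%, 14.5%, 22.2% and 13% of batches 3, 4, 8 and 9. Their share in Aire/EED-dKO was 5.68%, 6.58% and 5.97% in batches 1, 2 and 7. In batch 6 there were 0 of 38 cells, which allows a share of up to 7.89%. Every EED-cKO batch thus lay above every Aire/EED-dKO batch. The exact 95% intervals of the pooled shares (11.3 to 19.7% and 2.87 to 8.58%) cover counting error only, and the median score of all cells was also higher in EED-cKO (0.345 against 0.155).

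Members had somewhat more reads than other cells. Total reads per cell ran from 205703 to 2419312 over all cells (median 1104029). The median was 1425338 in EED-cKO members against 1211529 in their other cells, and 1032798 against 934491 in Aire/EED-dKO. After each cell was thinned to 200000 reads, members still showed slightly more genes with a read (12430 against 12098, and 13230 against 12048). The mitochondrial share of reads was 0.478% against 0.511% in EED-cKO and 0.74% against 0.711% in Aire/EED-dKO. Immediate early and heat shock genes, which respond to tissue dissociation, summed to 1212 CPM in EED-cKO members against 909 CPM in other cells, and to 1656 against 805 CPM in Aire/EED-dKO. Of the 10 genes 7 had a ratio above 0 and 1 was at least 2-fold higher in EED-cKO (10%, beside 5.14% of all genes, median 0.26, batches -0.09 to 0.63). In Aire/EED-dKO 10 had a ratio above 0 and 3 were at least 2-fold higher (30%, beside 12.6% of all genes, median 0.82, batches 0.19 to 1.52). Their part in the results below was not tested.

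The 8 score genes themselves were at least 4-fold higher in members of both genotypes, as the choice requires. Krt5, a basal keratin (chr15:101707070-101712898, minus strand, GRCm38), was summed over cells to 886 CPM in EED-cKO members against 209.3 CPM in other cells, and to 1179 against 94.4 CPM in Aire/EED-dKO. Among them Lifr, the receptor of leukemia inhibitory factor, stood at 1053 CPM in EED-cKO members and at 1228 CPM in Aire/EED-dKO members, with log2 ratios of 2.83 and 3.34. For Boc, a Hedgehog co-receptor, the values were 208.2 against 19.7 CPM and 240.6 against 11.1 CPM. Single genes did not mark all members. The lowest EED-cKO member had 0 CPM of Col6a2 (a collagen VI chain), of Myl9 (a myosin light chain) and of Slc27a3 (a fatty acid transporter family member), and the lowest member for Krt5 had 72.3 CPM, less than the median of other EED-cKO cells (74.5 CPM).

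Outside these genes, the members resembled one another. Cells were placed by 30 principal components of the 6000 most variable genes with the score genes left out, and 20 nearest neighbors were taken for each. Of the neighbors of members, 71.7% (EED-cKO) and 72.5% (Aire/EED-dKO) were members, whereas members made up 10.5% of all cells. Among other cells the share was 4.84% and 1.45%, and no member was near 65% of other EED-cKO cells and 88.2% of other Aire/EED-dKO cells. At least 10 of the 20 neighbors were members for 34 of 46 and for 11 of 14 members. As all these genes were measured in the cells the score ranked, the shares describe the members and test nothing.

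Aire/EED-dKO members lay near EED-cKO members. For Aire/EED-dKO members, 62.1% of neighbors came from EED-cKO, mostly from its members (48.2% of all neighbors), while 14.3% of the neighbors of other Aire/EED-dKO cells did. For EED-cKO members, 16.2% of neighbors came from Aire/EED-dKO, beside 18% for other EED-cKO cells. Leiden clustering gave 7 clusters, and 1 of them held 40 of the 60 members among its 56 cells (28 EED-cKO and 12 Aire/EED-dKO members). With 10 neighbors per cell the fullest cluster held 23 members and no other cell, and under the 4 other settings tried 35 to 43 members. The cluster with 40 members was led, by difference in mean normalized value from all other cells, by Flna, Il2ra, Col12a1, Krt14, Plxnb1, Tnc, Notch1, Emp2, Krt17 and Slc7a11. A second cluster, led by the mitotic genes Mki67, Top2a and Aspm, held 16 members (15 of them EED-cKO) among 48 cells. The last 4 members lay in a cluster of which they made up 3.51%, and the other 4 clusters held no member (0 of 60).

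**Figure D2:**
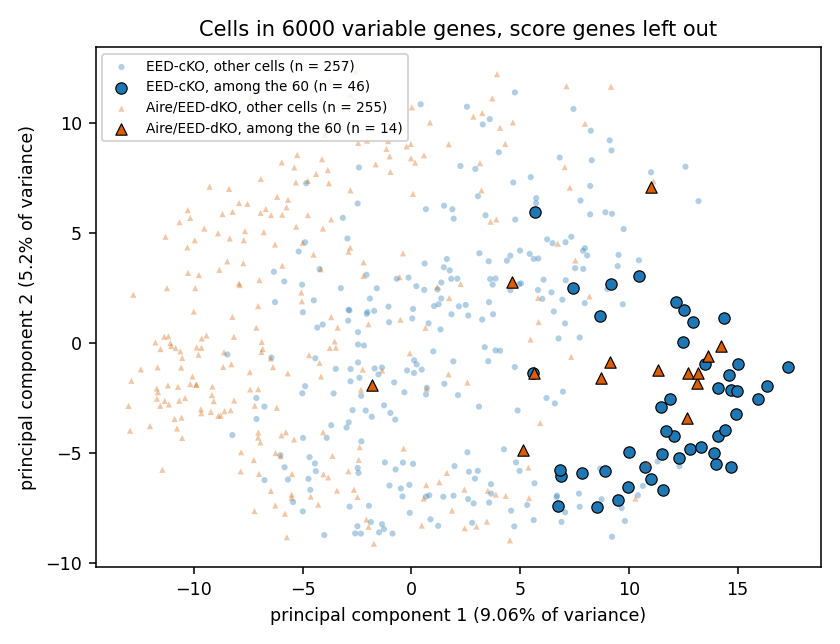
Each point is a cell placed by the first 2 principal components (9.06% and 5.2% of the variance) of 6000 variable genes without the score genes. Members of both genotypes (large symbols) sit at the right, with medians on the first component of 12.1 (EED-cKO) and 11.2 (Aire/EED-dKO) against 1.52 and -5.51 in the other cells.

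Across the transcriptome, members and other cells were compared gene by gene. Reads were summed over cells and expressed in CPM, and the log2 ratio of members over other cells was taken with 0.1 CPM added. Over 29850 genes outside the score, 1535 (5.14%) were at least 2-fold higher in EED-cKO members and 8480 (28.4%) at least 2-fold lower. In Aire/EED-dKO, 3755 genes (12.6%) were at least 2-fold higher and 6928 (23.2%) lower. Both genotypes shared 822 higher genes (2.75%) and 4116 lower genes (13.8%). Many of these genes were sparse, and zero counts in few members give low ratios. When 5 reads or more were required in 25% of all cells, 13892 genes were left, of which 4.71% and 12.3% were higher and lower in EED-cKO. In Aire/EED-dKO the shares were 8.74% and 12.1%, and in both genotypes 3% and 7.54%. Over these widely expressed genes the ratios of the 2 genotypes had a Pearson r of 0.70, across genes, which are not independent replicates and share the choice of members.

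**Figure D3:**
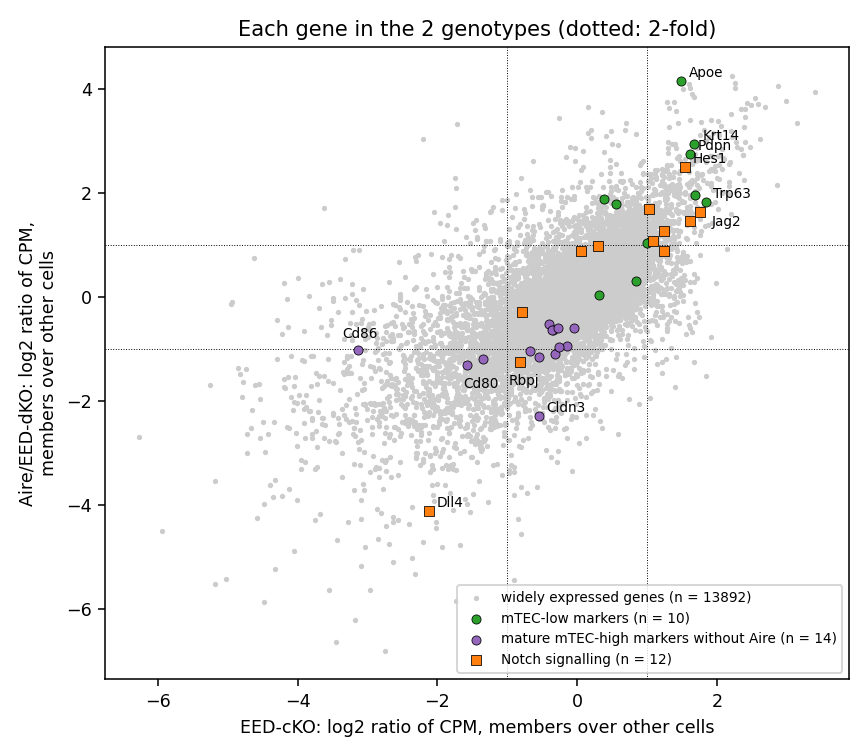
Log2 ratios of members over other cells in EED-cKO (horizontal) and Aire/EED-dKO (vertical) for 13892 widely expressed genes (gray) and for genes of 3 lists, where dotted lines mark 2-fold. mTEC-low markers lie above 0 on both axes, the 14 mature markers shown (without Aire) lie below 0 on both, and Notch genes are split, with Dll4 and Rbpj low and Hes1 and Jag2 high.

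Markers of mTEC-low that the score did not use were higher in the members. All 10 markers had a ratio above 0 in both genotypes, and 6 (EED-cKO, 60% against 5.14% of all genes) and 8 (Aire/EED-dKO, 80% against 12.6%) were at least 2-fold higher. The list's median log2 ratio was 1.25 in EED-cKO (1.02 to 1.68 over the 4 batches) and 1.86 in Aire/EED-dKO (1.88 to 1.96 over the 3 batches with members), beside medians over all genes of -0.23 and -0.06. Summed over the 10 genes, single EED-cKO members ranged from 1465 to 6118 CPM (median 3304), and other cells from 282.8 to 6103 CPM (median 1536). The groups therefore overlapped, and most members lay in the upper part of the range.

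Krt14, the keratin partner of Krt5 (chr11:100203162-100207548, minus strand, GRCm38), was measured at 29.7 to 1173 CPM in EED-cKO members (median 548) and at 0 to 1400 CPM in other cells (median 102.2). Batch sums of the members were 546, 637, 500 and 550 CPM in batches 3, 4, 8 and 9, against 158.8, 155.6, 159.8 and 217.5 CPM. The log2 ratio of the pooled sums was 1.68. In Aire/EED-dKO, members ranged from 422 to 3093 CPM (median 967) and other cells from 0 to 963 CPM (median 68.6), a log2 ratio of 2.95. In every batch with members, their sum was above that of the other cells, while single cells overlapped.

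Ccl21a, which attracts positively selected thymocytes to the medulla, was at 49.6 CPM in EED-cKO members and 15.3 CPM in other cells (log2 ratio 1.69, batches 1.60 to 1.79). In Aire/EED-dKO it was at 65.3 against 16.6 CPM (1.97, batches 1.84 to 2.08). Ccl21a has near-identical copies in the genome, so its counts are uncertain. Trp63, the p63 factor of basal epithelial progenitors, reached 427 against 119.4 CPM (1.84) and 530 against 149.2 CPM (1.83). Pdpn, or podoplanin, a surface protein of immature TECs at the corticomedullary junction, gave log2 ratios of 1.62 and 2.75, and the lipid carrier Apoe gave 1.49 and 4.16. The hemidesmosomal integrin Itgb4 was at 1.00 and 1.05, and its partner Itga6 at 0.31 and 0.05. Ackr4, Ly6a and Igfbp5 gave 0.55, 0.85 and 0.39 in EED-cKO and 1.80, 0.31 and 1.89 in Aire/EED-dKO, and each had batches on either side of 0 in at least 1 genotype.

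The cells next in score lay between members and other cells for some markers and not for others. In the 60 cells next in score, EED-cKO cells had 287.9 CPM of Krt14 and 165.4 CPM of Trp63, both between members and other cells. Their Ccl21a was at 20.5 CPM, and their Pdpn (43.5 CPM) was below that of all other EED-cKO cells (50.6 CPM). Over all EED-cKO cells the score and total reads had a Spearman rho of 0.27.

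Nearly all markers of mature mTEC-high had ratios below 0 in the members. In EED-cKO all 15 were below 0 (median -0.40, batches -0.46 to -0.27, and -0.26 under both other scalings). Of these 4 were at least 2-fold lower (26.7%), near the 28.4% of all genes. In Aire/EED-dKO 7 of 15 were at least 2-fold lower (46.7%, against 23.2% of all genes) and 1, Aire, was higher through the cell named above (median -0.95). H2-Aa, a class II chain, was measured at 558 to 1304 CPM in EED-cKO members (median 859) and at 435 to 2857 CPM in other cells (median 1052). Its EED-cKO log2 ratio was -0.34 and the Aire/EED-dKO one -0.62, and H2-Ab1, its partner chain, gave -0.36 and -0.62. The members thus held class II RNA within 2-fold of the cells they were sorted with, whereas a low class II level defines mTEC-low, so that "mTEC-low-like" rests on the other markers.

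Costimulatory genes differed more. Cd80, a ligand of CD28, was at 47.1 CPM in EED-cKO members against 140.5 CPM (log2 ratio -1.58, batches -2.18 to -1.15) and at 103.9 against 255.4 CPM in Aire/EED-dKO (-1.30). Cd86, the second CD28 ligand, was at 3.82 against 34.5 CPM in EED-cKO (-3.14). In Aire/EED-dKO Cd86 was at 24.8 against 50 CPM, with 83.3% of the members' reads in 1 cell. The tight junction genes Cldn3 and Cldn4 gave -0.55 and -1.35 in EED-cKO and -2.28 and -1.19 in Aire/EED-dKO. Fezf2, the other factor of self-antigen expression in mTECs, had ratios of -0.31 and -1.10. Summed over the 15 markers, EED-cKO members had 5460 CPM and other cells 7714 CPM.

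Aire itself (chr10:78030022-78043610, minus strand, GRCm38) was lower in nearly all EED-cKO members. Single members held 3.38 to 1233 CPM (median 137.3) and other cells 5 to 3706 CPM (median 933). Batch sums ran from 118.5 CPM (batch 9) to 311.5 CPM (batch 3) in members, against 829 CPM (batch 9) to 1161 CPM (batch 3). The log2 ratio of the pooled sums (217.7 against 1004 CPM) was -2.21. Of the 46 members, 45 lay below the median of the other EED-cKO cells and 21 below their 10th percentile (102.5 CPM). The ranges of members and other cells overlapped, and the highest member (1233 CPM) was above the median of the other cells. In the 60 cells next in score Aire was at 775 CPM.

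Few reads mapped to Aire in Aire/EED-dKO. Members had 132.2 CPM and other cells 16 CPM, but 96.1% of the members' reads came from the single batch 7 cell with 1665 CPM. No other Aire/EED-dKO member exceeded 44.1 CPM. The log2 ratio was 3.04 with this cell and -1.50 without it. The cell had 619 CPM of Krt5 and was not high in cycling markers. Without it, 813 genes were at least 2-fold higher and 4412 lower in both genotypes.

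**Figure D4:**
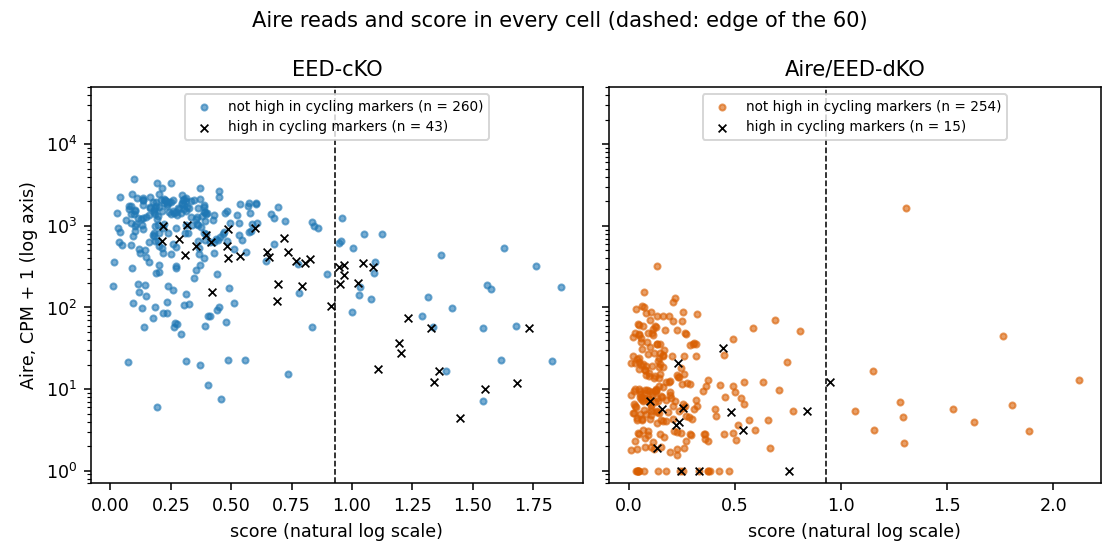
Aire (CPM plus 1, log axis) against the score for each cell of EED-cKO (left) and Aire/EED-dKO (right), with cells high in cycling markers as crosses and the edge of the 60 as a dashed line. EED-cKO members (right of the line) have a median of 137.3 CPM against 933 CPM in other cells, and 1 Aire/EED-dKO member stands alone at 1665 CPM.

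Aire-driven genes, the name the study gives to targets confined to its main Aire-expressing cluster, were lower in EED-cKO members. The list holds the 444 genes with this assignment in the part of the study's table that is held here, and 431 had a ratio. In EED-cKO members 359 of them were at least 2-fold lower and 10 higher (median log2 ratio -3.02, batches -3.74 to -2.84), against 28.4% lower and 5.14% higher over all genes. Their summed level was 3275 CPM in members and 8607 CPM in other cells, and single members ranged from 1053 to 12474 CPM (median 2406.9). In Aire/EED-dKO 35.7% were lower (against 23.2% of all genes) and 16.9% higher (against 12.6%). The median was -0.36 (batches -0.83 to -0.59), or -0.09 with genes at 0 set to their bound. There the members' summed level (2316.9 CPM) was above that of other cells (1593 CPM), so the median and the sum differed in sign.

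Cycling genes were higher in EED-cKO members. Cells were called high in cycling markers when the 10 markers summed to more than 865 CPM, the 90th percentile of all cells. This held for 18 of 46 EED-cKO members (39.1%, exact 95% interval 25.1 to 54.6%) and 9.73% of other cells. Among the 60 cells next in score, 13 of 43 EED-cKO cells (30.2%) were high as well, and the summed markers were at 1400 CPM in them, against 1466 CPM in members and 530 CPM in all other cells. Most high members were of day 3, with 15 of 24 members (62.5%) against 18.1% of other cells, while at day 4 there were 3 of 22 members (13.6%) and 2.84% of other cells. In Aire/EED-dKO it held for 1 of 14 members and 5.49% of other cells. Of the 10 markers 9 were at least 2-fold higher in EED-cKO members (90%, against 5.14% of all genes). The median of the list was 1.49 there, or -0.32 without cells high in cycling markers. In Aire/EED-dKO members 0 were at least 2-fold higher (against 12.6% of all genes) and 2 lower (20% against 23.2%, median -0.01). The Aire/EED-dKO median rested on single batches (-3.01 to 1.86), and was -2.83 without batch 7 and 0.78 without batch 1. Mki67, a protein of dividing nuclei, was at 495 against 171.6 CPM (log2 ratio 1.53) and Ccnb1, the mitotic cyclin B1, at 31.9 against 8.95 CPM (1.82), whereas Pcna, the replication clamp, had a ratio of 0.19.

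The 18 EED-cKO members high in cycling markers differed from the other 28 in Aire. Their median Aire level was 55.3 CPM (3.38 to 352) against 172.1 CPM (6.2 to 1233) in the other members. Of the 18, 15 were of day 3, as were 9 of the other 28, and age moved with this difference. Within day 3 the medians were 73.5 and 124.7 CPM, and within day 4 they were 11 CPM (3 cells) and 189.7 CPM (19 cells). Their medians of Krt5 (871 against 969 CPM), Krt14 (535 against 589 CPM) and Ccl21a (44.1 against 50.7 CPM) were close to those of the other members. Without all cells high in cycling markers, 887 genes were at least 2-fold higher in both genotypes, 704 of them among the 822.

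Genes that anchor basal epithelium were among those higher in members. Of 18 genes of hemidesmosomes and basement membrane, 8 were at least 2-fold higher in each genotype (44.4%, beside 5.14% and 12.6% of all genes) and 1 lower in EED-cKO (5.56% against 28.4%). The medians were 0.55 and 0.75. Those with the largest ratios encode laminin chains and collagens of the basement membrane. Lamb3, a chain of laminin-332, was at 112.1 against 31.5 CPM in EED-cKO (log2 ratio 1.83) and at 110 against 13.6 CPM in Aire/EED-dKO (3.01). The laminin chain Lama3 gave 1.63 and 2.18, Lamb1 1.59 and 2.56, and Lama5 1.34 and 2.06. Col7a1, the anchoring fibril collagen, gave 1.41 and 3.58. The nidogen Nid1 was at -1.03 and 0.09.

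Secreted matrix genes were split. Of 16 genes, 5 were at least 2-fold higher (31.2%, against 5.14% of all genes) and 2 lower (12.5% against 28.4%) in EED-cKO (median 0.38). In Aire/EED-dKO 8 were higher (50% against 12.6%) and 0 lower (against 23.2%, median 1.30). Fbn1, the microfibril protein fibrillin-1, was at 655 against 144.2 CPM (log2 ratio 2.18) and at 327 against 55.6 CPM (2.56). Col6a1, the partner chain of the score gene Col6a2, gave 1.65 and 3.90. Fn1, or fibronectin, and Thbs1, or thrombospondin-1, gave -1.61 and -1.70 in EED-cKO and -0.12 and -0.97 in Aire/EED-dKO. Hence collagen VI and fibrillin genes were high in members of both genotypes, while fibronectin was not.

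As several score genes are also expressed by mesenchymal cells, markers of other cell types were measured. Of the 10 fibroblast markers 6 were at least 2-fold higher (60%, against 5.14% of all genes) and 2 lower (20% against 28.4%) in EED-cKO members (median 1.24, batches -0.82 to 1.83). In Aire/EED-dKO 3 were higher (30% against 12.6%) and 2 lower (20% against 23.2%, median 0.10). Their summed level was 542 CPM in EED-cKO members against 504 CPM in other cells, and 552 against 483 CPM in Aire/EED-dKO. One EED-cKO member held 8477 CPM, and the median member 347 CPM. Cells above the 90th percentile of all cells (1132 CPM) were 2 of 46 and 1 of 14 members, against 10.5% and 11% of other cells. Col1a1, the main fibrillar collagen of fibroblasts, had ratios below 0 that were under 2-fold (-0.72 and -0.75). Twist2 was under 1 CPM in members, and Pdgfra, a fibroblast receptor, was higher (1.74, with 41.6% of reads in 1 cell, and 4.77). In EED-cKO the list's median was above 0 in batch 4 alone (1.83), and it was -0.45 without that batch and -0.66 without cells high in cycling markers. Without cells high in fibroblast markers, 816 genes were at least 2-fold higher in both genotypes, 745 of them among the 822.

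Markers of other cell types gave no common pattern. The 8 mural markers (of pericytes and smooth muscle) summed to 2045.7 against 1442 CPM in EED-cKO and 2002.6 against 1539.5 CPM in Aire/EED-dKO, most of it Rgs5 (1314 and 1354 CPM in members), while Cnn1 was under 1 CPM. The 6 endothelial markers, 4 of which had a ratio, summed to 14.6 and 12.8 CPM in members, where Cdh5 and Tie1 were under 1 CPM. In other cells they summed to 59.5 and 24 CPM. Of the 8 thymocyte markers, Ptprc (CD45), Cd3d, Cd3e, Cd3g and Rag1 were each under 1 CPM in EED-cKO members. The 8 markers summed to 21.8 CPM in EED-cKO members against 64.4 CPM in other cells. They summed to 94.2 CPM in Aire/EED-dKO members against 76.5 CPM in other cells, and to 22.7 CPM without the Aire-high cell of batch 7, which held 961 CPM. The log2 ratio of Ptprc was 1.62 with this cell and -3.05 without it. The part of other cell types in the results was not tested. Epcam, the epithelial adhesion molecule of the sort, was near its level in other cells (0.24 and 0.19). The 8 TEC identity genes went both ways, with 3 above and 5 below 0 in EED-cKO and 4 of each in Aire/EED-dKO (medians -0.12 and 0.09).

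Most actin regulators and keratins had a ratio above 0 in both genotypes (14 and 13 of 16 actin genes, 5 and 7 of 8 keratins). Of 16 actin genes 7 were at least 2-fold higher in EED-cKO (43.8%, against 5.14% of all genes) and 10 in Aire/EED-dKO (62.5% against 12.6%). In each genotype 1 was lower (6.25%, against 28.4% and 23.2% of all genes), the myosin kinase gene Mylk (-1.61 and -1.32). The median of the actin genes stood at 0.88 in EED-cKO, with 1.10 in Aire/EED-dKO. Flna, or filamin A, which crosslinks actin, was at 1497 against 466 CPM (log2 ratio 1.68) and 1321 against 281.5 CPM (2.23). Cnn2 (calponin 2) gave 1.71 and 2.15, Cald1 (caldesmon) 1.61 and 2.21, Vcl (vinculin, at cell adhesions) 1.20 and 1.04, and Tagln2 (transgelin 2) 0.97 and 1.13. Ccn1 and Ccn2, matricellular targets of the YAP and TEAD factors, gave 1.39 and 1.56 in EED-cKO and 3.75 and 5.69 in Aire/EED-dKO. Both were sparse, and 1 cell held 89.6% of the Ccn2 reads of Aire/EED-dKO members. In EED-cKO the Ccn2 ratio was -0.17 without batch 3.

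The sequence before the start of the actin genes was searched for short motifs. Windows of 250 bases upstream of a RefSeq transcript start (GRCm38.p6) were available for 14 of the 16 actin genes. The windows of 3 of them are shown. Flna and Vcl were at least 2-fold higher in members of both genotypes, and Tagln2 in Aire/EED-dKO alone. The letters GGAATG or the reverse complement CATTCC, the core read by TEAD factors, are in capitals. Flna lies at chrX:74246535-74246784 (minus strand), Tagln2 at chr1:172499996-172500245 (plus strand) and Vcl at chr14:20929148-20929397 (plus strand). Each sequence ends at the base before the RefSeq start and is written 5′ to 3′ on the strand of the gene. The Flna window lies inside the annotated span of the gene, before a start other than its outermost one, and the Tagln2 window overlaps the beginning of the annotated span.
Flna: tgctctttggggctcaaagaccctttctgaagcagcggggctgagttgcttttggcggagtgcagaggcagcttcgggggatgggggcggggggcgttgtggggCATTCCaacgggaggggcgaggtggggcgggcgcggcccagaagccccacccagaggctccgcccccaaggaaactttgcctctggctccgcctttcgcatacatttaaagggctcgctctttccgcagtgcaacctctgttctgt
Tagln2: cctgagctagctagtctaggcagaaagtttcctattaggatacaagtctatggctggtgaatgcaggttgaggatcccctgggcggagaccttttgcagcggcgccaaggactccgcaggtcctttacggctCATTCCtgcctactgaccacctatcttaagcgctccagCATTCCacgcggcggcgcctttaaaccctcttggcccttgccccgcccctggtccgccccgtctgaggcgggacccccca
Vcl: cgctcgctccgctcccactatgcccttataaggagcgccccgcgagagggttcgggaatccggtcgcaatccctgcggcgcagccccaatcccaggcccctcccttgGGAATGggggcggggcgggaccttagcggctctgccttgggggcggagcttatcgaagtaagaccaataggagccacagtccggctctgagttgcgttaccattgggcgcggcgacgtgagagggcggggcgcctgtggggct
The first base of the capitals is at -146 in Flna, -118 and -80 in Tagln2 and -143 in Vcl, counted back from that start. The motif was present in 8 of the 14 actin genes (57.1%), against 14.4% of 27025 genes with a window. One of the 8 was Mylk, which was lower in members. Among genes at least 2-fold higher in both genotypes 20.6% of 475 held it, and among those lower 14.8%, beside 13.6% of all 16317 genes with a ratio and a window. A match of 6 letters is a description and not a binding site. Other motifs searched on both strands were also more frequent in the actin list. GGGCGG, the GC box, was present in 11 of its 14 genes (78.6%, against 35.4% of all genes with a window), the CArG box in 2 (14.3% against 1.62%) and TGANTCA, the AP-1 site, in 2 (14.3% against 7.82%). Among genes with a ratio and a window these 3 shares were 51%, 1.42% and 6.75%. GGAATG and CATTCC can share up to 2 bases with a neighboring GC box or AP-1 match. The median number of CpG was 15 in the actin windows. It was 10 in windows of genes higher in both genotypes, 5 in those lower and 11 in those of all genes with a ratio.

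Among keratins, the basal ones named here had ratios above 0 in members, and the simple keratin Krt8 was near its level in other cells. Krt17, a keratin of stressed and basal epithelium, was at 837 against 466 CPM (log2 ratio 0.84) and 977 against 270 CPM (1.85), and Krt15, a basal keratin, gave 1.34 and 2.37. Krt8, which most TECs express, gave -0.23 and -0.10. Of the 8 keratins 3 were at least 2-fold higher in EED-cKO (37.5%, against 5.14% of all genes), and 6 were in Aire/EED-dKO (75% against 12.6%).

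Partners of the score genes in signaling were measured next. Lifr signals together with Il6st (gp130), which was at 617 CPM in EED-cKO members (log2 ratio 1.47, batches 0.93 to 1.95) and 618 against 153.4 CPM in Aire/EED-dKO (2.01, batches 1.80 to 2.09). Osmr, the oncostatin M receptor that also pairs with Il6st, gave 1.07 and 2.19, and Socs3, an inhibitor induced by this pathway, 1.04 and 1.02. Il6ra, the interleukin-6 receptor chain, was lower (-1.58 and -1.31), and the transducer Stat3 was near its level in other cells (-0.16 and -0.31). Over the list of 13 genes, 3 were at least 2-fold higher (23.1%, against 5.14% of all genes) and 3 lower (23.1% against 28.4%) in EED-cKO. In Aire/EED-dKO 5 were higher (38.5% against 12.6%) and 2 lower (15.4% against 23.2%). The medians were -0.10 and -0.31. In both genotypes the summed level of the list was above that of other cells (2509.6 against 1857 CPM in Aire/EED-dKO), so that sum and median differed in sign, and the EED-cKO median was 0.04 under both other scalings.

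Boc binds Hedgehog ligands together with Gas1 and Cdon. Gas1 was at 107.7 against 18.5 CPM (log2 ratio 2.54) and 156.1 against 11 CPM (3.82), and Cdon at 0.37 and 0.34. The transcription factor Gli3 was at 332 against 71.1 CPM (2.22, batches 1.65 to 2.71) and 407 against 48.3 CPM (3.07, batches 2.61 to 3.71). Gli1, a target of the pathway, was at 24.8 against 3.73 CPM (2.70) and 23 against 0.634 CPM (4.98), and the transducer Smo gave 1.05 and 1.01. The receptor and target Ptch1 was at -0.04 and 1.55. Ligands were low, with Dhh at 8.11 against 47.9 CPM in EED-cKO (-2.55) and 19.4 against 38.6 CPM in Aire/EED-dKO (-0.99). Of 13 genes 4 were at least 2-fold higher (30.8%, against 5.14% of all genes) and 4 lower (30.8%, near the 28.4% of all genes) in EED-cKO. In Aire/EED-dKO 9 were higher (69.2% against 12.6%) and 1 lower (7.69% against 23.2%).

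Of the 12 Notch genes, 9 had a ratio above 0 in members of each genotype. Receptors were higher in members, with Notch1 at 705 CPM in EED-cKO members (log2 ratio 1.25) and 580 CPM in Aire/EED-dKO members (1.28), and Notch2 at 1.08 in both. The ligands Jag1 and Jag2 gave 1.03 and 1.76 in EED-cKO and 1.69 and 1.64 in Aire/EED-dKO. The targets Hes1 and Hey1 were higher too, with Hes1, a repressor, at 67.3 against 23.1 CPM (1.54, batches 1.41 to 1.81) and 113.1 against 20 CPM (2.50, batches 2.01 to 2.90), and Hey1 at 1.61 and 1.47. Dtx1, a regulator of Notch given further below, was lower in both genotypes. The ligand Dll4, which cortical TECs show to early thymocytes, was lower (-2.12 and -4.11). Rbpj, the DNA-binding partner of Notch, had ratios of -0.82, which is under 2-fold, and -1.24. Of 12 genes 7 were at least 2-fold higher (58.3%, against 5.14% of all genes) and 1 lower (8.33% against 28.4%) in EED-cKO. In Aire/EED-dKO 6 were higher (50% against 12.6%) and 2 lower (16.7% against 23.2%). The medians were 1.05 and 1.04.

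In Wnt, TGF-β and RANK signaling the lists differed. Of 16 Wnt genes 4 were at least 2-fold higher (25%, against 5.14% of all genes) and 0 lower (against 28.4%) in EED-cKO. In Aire/EED-dKO 6 were higher (37.5% against 12.6%) and 1 lower (6.25% against 23.2%). The higher ones were led by the receptor Fzd7 (216.5 against 47.8 CPM, log2 ratio 2.18, and 177.8 against 40.6 CPM, 2.13) and the secreted inhibitors Dkk3 (1.61 and 4.02) and Sfrp1 (1.39 and 2.09). The target Axin2 was at 0.05 and -0.38. In the TGF-β list 1 of 17 was higher (5.88%, near the share of all genes) and 2 lower (11.8% against 28.4%) in EED-cKO, and 3 were higher in Aire/EED-dKO (17.6% against 12.6%), with the receptor Tgfbr2 at 1.57 and 1.67. Of 11 genes of RANK and non-canonical NF-κB, which drive mTEC maturation, 0 differed by 2-fold in EED-cKO, beside 5.14% higher and 28.4% lower over all genes. In Aire/EED-dKO 1, Cd40 (-1.03), was lower (9.09%, beside 23.2% of all genes). Tnfrsf11a, or RANK, was at 599 against 619 CPM (-0.05) in EED-cKO and 548 against 827 CPM (-0.59) in Aire/EED-dKO. The medians of the list were -0.27 and -0.59, and Ltbr, the lymphotoxin receptor, was its highest member (0.91 and 0.79).

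Thymocyte attractants and survival factors were split. Beside Ccl21a, Il7, the survival cytokine of early T cells, was higher (217.7 against 93.8 CPM, log2 ratio 1.21, and 323 against 123.7 CPM, 1.38). Ccl22 and Ccl17, which attract through CCR4, were lower in members, with Ccl22 at 7 against 125.7 CPM (-4.15) and 8.57 against 48.5 CPM (-2.49). Ccl25, the CCR9 ligand, was lower as well (-1.65 and -2.66). Of 10 measured genes, 2 were at least 2-fold higher (20%, against 5.14% of all genes) and 6 lower (60% against 28.4%) in EED-cKO. In Aire/EED-dKO 3 were higher (30% against 12.6%) and 3 lower (30% against 23.2%).

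**Figure D5:**
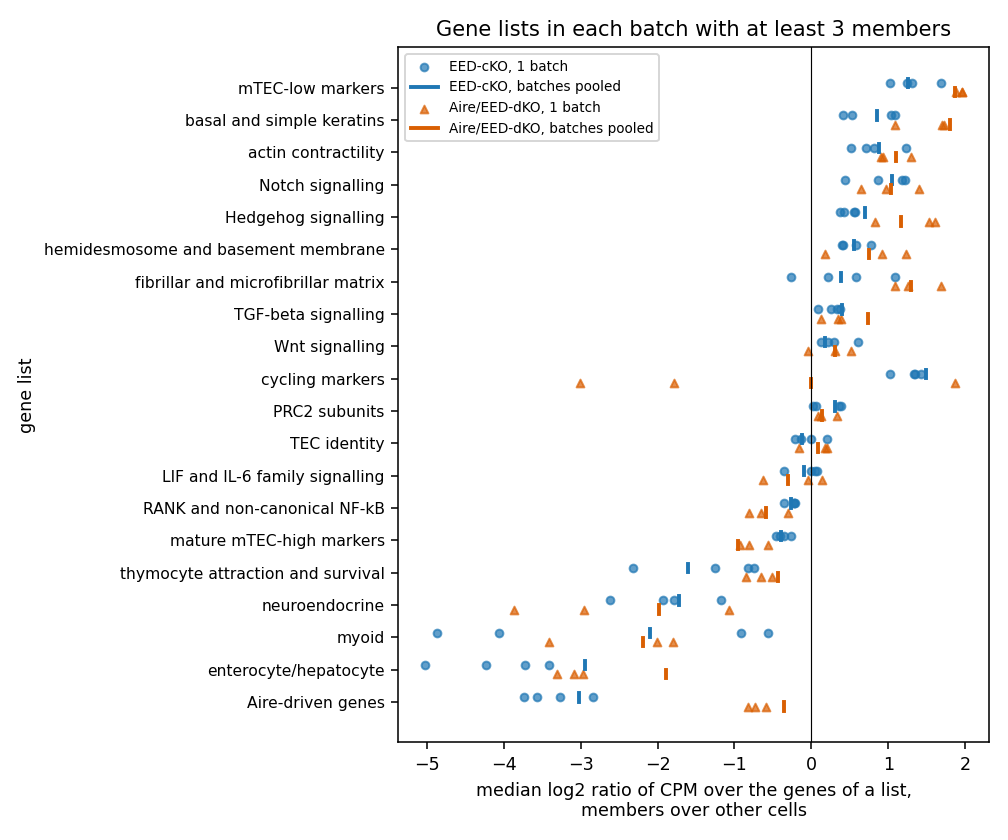
Median log2 ratio of members over other cells for 20 gene lists, with 1 symbol for each batch of at least 3 members and a bar for the pooled cells of a genotype. mTEC-low markers lie above 1 in all 7 batches and mature markers below 0, whereas cycling markers lie above 1 in EED-cKO and scatter from -3.01 to 1.86 in Aire/EED-dKO.

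Lists of mimetic cells, the mTECs that take on features of peripheral cell types, were not of 1 kind. The enterocyte and hepatocyte list had all 8 genes at least 2-fold lower in EED-cKO (median -2.94) and 5 in Aire/EED-dKO (62.5%, median -1.89), beside 28.4% and 23.2% of all genes, with Apob, an apolipoprotein, at 2.55 against 93.6 CPM and 0.218 against 30.4 CPM. Of 7 neuroendocrine genes 5 (71.4%) and 4 (57.1%) were lower, among them Insm1, a factor of endocrine cells (35.7 against 117.7 CPM, log2 ratio -1.72, and 57.3 against 226.1 CPM, -1.98). Of 7 myoid genes 6 (85.7%) and 5 (71.4%) were lower, among them Chrna1, the muscle acetylcholine receptor (-3.45 and -2.78). The tuft, microfold and ciliated lists had medians of -0.75, -0.74 and -0.83 in EED-cKO and 0.66, 0.14 and 0.24 in Aire/EED-dKO. Batch medians in EED-cKO ran from -2.70 to -0.17 (tuft), -2.50 to 0.58 (microfold) and -1.56 to -0.65 (ciliated). In Aire/EED-dKO each list had batches on either side of 0 (-0.62 to 0.65, -3.35 to 0.14 and -2.06 to 0.42). The summed tuft genes were higher in members of both genotypes (266.1 against 179.5 CPM, and 376 against 194.3 CPM). The microfold sum was 771 against 702 CPM in EED-cKO and 436 against 480 CPM in Aire/EED-dKO, and the ciliated sum was 33.7 against 136.2 CPM and 69.9 against 126.4 CPM. For tuft and microfold in EED-cKO, and for microfold and ciliated in Aire/EED-dKO, the median and the sum thus differed in sign.

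The keratinocyte list had medians on opposite sides of 0, a difference that was not tested. Its 8 genes had a median of -1.71 in EED-cKO, with 5 lower (62.5%, against 28.4% of all genes) and 1 higher (12.5% against 5.14%). In Aire/EED-dKO the median was 1.30, with 4 higher (50% against 12.6%) and 1 lower (12.5% against 23.2%). Its summed level was above that of other cells in both (208.6 against 189.4 CPM, and 266.6 against 98.1 CPM). Krtdap, a keratinocyte differentiation gene, was higher in members of both (93.5 against 22.1 CPM, log2 ratio 2.07, and 78.1 against 3.03 CPM, 4.64), whereas Ivl, or involucrin of the cornified envelope, gave -5.86 and 1.63. In Aire/EED-dKO 85.7% of the Ivl reads of members came from 1 cell, and the ratio was -0.01 without batch 1. Of the 8 cTEC genes 4 were at least 2-fold lower and 0 higher in EED-cKO (50% lower, against 28.4% of all genes). In Aire/EED-dKO 2 were lower and 2 higher (25% each, against 23.2% and 12.6%). The batch medians ran from -1.52 to -0.56 and from -1.03 to 0.11, with Psmb11, the thymoproteasome subunit of the cortex, under 1 CPM in EED-cKO members.

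PRC2 subunits differed little. Eed was at 14.4 against 10.9 CPM in EED-cKO (log2 ratio 0.40) and 17.7 against 12.4 CPM in Aire/EED-dKO (0.51). Its counts cover the whole gene, and so they do not check the deletion of the floxed part. Ezh2, the methyltransferase, gave 0.61 and 0.14 and Suz12, the third core subunit, 0.08 and 0.35. Of 11 subunits 1 was at least 2-fold higher in each genotype (9.09%, beside 5.14% and 12.6% of all genes), Phf19 (1.67, or -1.30 without cells high in cycling markers) in EED-cKO and Mtf2 (1.22) in Aire/EED-dKO. Phf19 (-1.25) and Jarid2 (-1.14) were lower in Aire/EED-dKO (18.2%, beside 23.2% of all genes).

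Hox genes, which PRC2 keeps silent in many tissues, were largely lower in EED-cKO members. Of 41 genes (Hox genes with Cdkn2a and Cdkn2b) 26 were at least 2-fold lower (63.4%, against 28.4% of all genes) and 2 higher (4.88% against 5.14%) in EED-cKO (median -1.80, batches -2.37 to -1.11). In Aire/EED-dKO 8 were lower (19.5% against 23.2%) and 15 higher (36.6% against 12.6%, median 0.01, -0.04 and -0.02 under other scalings, or 0.41 with genes at 0 set to their bound). The 2 higher genes in EED-cKO were Hoxa3 (9.8 against 2.15 CPM, log2 ratio 2.14) and Hoxa2 (1.88), both anterior Hox genes that pharyngeal tissue uses, and they were also higher in Aire/EED-dKO (1.81 and 1.95). Hoxa9, a posterior gene, was at 1.57 against 14.2 CPM and 0.581 against 13 CPM, and Hoxc11 at 1.37 against 15 CPM and 1.74 against 14.7 CPM. Cdkn2a, the cell cycle inhibitor locus that PRC2 restrains, was near its level in other cells (-0.28 and 0.36).

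By a fixed rule, the genes with the largest ratio common to both genotypes and all batches were listed. Among the 12 higher genes, Sectm1a, which encodes a secreted and transmembrane protein (chr11:121067407-121081220, minus strand, GRCm38), was at 89.6 against 7.07 CPM in EED-cKO (log2 ratio 3.65) and 50.9 against 2.44 CPM in Aire/EED-dKO (4.33). Id1, an inhibitor of basic helix-loop-helix factors and a target of BMP signals, ranged from 0 to 401 CPM in EED-cKO members (median 95.2) and from 0 to 237.8 CPM in other cells (median 3.27), a log2 ratio of 3.15, and had one of 3.34 in Aire/EED-dKO. Vwa1, a matrix protein of basement membranes, gave 3.41 and 3.95, Irak3, a brake on Toll-like receptor signals, 3.43 and 3.96, and C1ra, a protease of the complement pathway, 3.13 and 3.15. Ces1b, a carboxylesterase, gave 3.53 and 7.60, and Fxyd7, a regulator of the sodium pump, 3.19 and 4.19. The other 5 are unnamed transcripts, Gm48742, Gm38348, Gm36988, Gm13187 and Gm36947, with ratios of 3.12 to 3.43 in EED-cKO. Gm38348, Gm36988 and Gm13187 overlap Frmd4a (0.68 and 1.10), and without strand their reads cannot be told apart from it.

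Of the 12 lower genes, the median EED-cKO member had under 1 CPM each. Lrrc15, a leucine-rich repeat membrane protein, was at 4.12 against 101.4 CPM (log2 ratio -4.59) and 1.82 against 36.1 CPM (-4.24), and Tenm1, or teneurin 1, at 4.8 against 100 CPM and 11.8 against 170 CPM. Cybb, the NADPH oxidase chain of phagocytes, gave -5.94 and -4.49, and Kirrel2, a nephrin-like adhesion molecule, -6.44 and -4.88. Neural genes were among them, with Scrt2 (a neuronal repressor) at -4.49 and -5.86, Nefm (a neurofilament) at -4.49 and -3.97 and Grin1 (a glutamate receptor subunit) at -4.13 and -3.68. Dtx1, a regulator of Notch, gave -3.76 and -4.28. The last 4 were Gm39323, 4931408C20Rik, Fcrla and Tmem63c, with ratios of -5.18 to -3.55 in EED-cKO.

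The 10 genes whose ratios differed most between the 2 genotypes were also listed. The eosinophil attractant Ccl11 was at 55.5 against 0.155 CPM in Aire/EED-dKO members (log2 ratio 7.77) and at 0.954 against 1.39 CPM in EED-cKO (-0.50). Tril, an accessory of Toll-like receptors, gave 6.67 and -0.02, Rgs7bp, which anchors a G protein regulator, 4.52 and -2.23, and the calcium pump Atp2c2 2.38 and -5.21. Psca gave 3.70 in Aire/EED-dKO, where all (100%) of its 331 reads in members came from 1 cell (-4.23 without batch 1), and -4.00 in EED-cKO. In the other direction Oas2, an interferon-induced enzyme, gave 1.48 in EED-cKO, and had no read in Aire/EED-dKO members against 0.914 CPM in other cells. Depdc1a, a mitotic gene, gave 1.83 and -2.78, Sox8 -0.91 and -5.44, Mc3r 0.66 and -3.62, and Krt76 -1.46 and -5.69. With 14 Aire/EED-dKO members, single cells set many of these values, and none was tested.

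Several genes named here overlap another annotated gene, among them Krt5, Boc, Antxr1, Aire, Ccl21a, Trp63, Itgb4, Gli3, Gas1, Notch1, Jag2, Lamb3, Fbn1, Vcl, Eed and Ezh2. As reads were counted without strand, part of their reads may belong to the neighbor.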

How the data were processed

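Single sorted mTEC-high from neonates of both genotypes were sequenced by RamDA-seq. The deposited read counts per gene are whole numbers without normalization. Per the submitters' processing notes, reads went through fastp 0.20.0, STAR 2.7.3a, SAMtools 1.9, Picard 2.21.1 and HTSeq 0.11.2 on GRCm38 (mm10), counted without strand. The authors' second table holds normalized values on a natural log scale, ln(count / total x 10000 + 1), which 8 cells recomputed from the counts matched within 5.3e-15.

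The 60 cells with the highest score were compared with the other cells of their genotype. Counts were summed over cells and given in CPM, and 0.1 CPM was added before the log2 ratio of a gene was formed. A gene needed 5 or more reads in 5 or more cells. A gene counted as higher or lower from 2-fold on. With 1 sample per genotype no test was possible, cells are not replicates, and no p-value is given. Exact intervals over cells cover counting error only, since cells are not replicate animals, and a count of 0 was bounded by 3 counts. No doublet caller was run. Of 50197 gene IDs, 186 had no symbol, and 0 columns of the tables were unmatched. Authors' comparison columns were not used, and from the study's table of Aire targets, held in part, only gene names were taken. The CArG box was searched by its usual degenerate form.

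Members and gene lists were chosen with earlier results of these data known. Genes named were the 8 score genes, a fixed set (Aire, Eed, Ezh2, Suz12, Cd80, H2-Aa, H2-Ab1), list members with large ratios, 12 genes in each direction with the largest smaller ratio of the 2 genotypes (at least 5 reads in at least 25% of members for higher genes, or of other cells for lower ones, and the same sign in every batch with at least 3 members), and 5 in each direction whose ratios differed most between genotypes. Other genes were named for their role after their values were seen.

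Alternatives covered scaling (edgeR 4.0.16, DESeq2 1.42.0), added CPM, gene minimum, averaging, the choice of members, thinning to 200000 reads, and leaving out batches, ages or cells. The computation was tested on simulated data. Software was Python 3.11.15 with numpy 2.4.6, pandas 2.3.3, SciPy 1.17.1, scanpy 1.11.5, igraph 0.11.9 and matplotlib 3.10.9, and R 4.3.3.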

Additional observations from a re-analysis of the deposited data

Results flagged for a closer look

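Among the 4 batches of a genotype, 1 batch stood apart from the other 3 for 15 values, or 8.57% of those looked at, where chance flags about 1 in 20 groups. Batch 6 of Aire/EED-dKO held 0% members against 5.68 to 6.58% in the other batches. The other 14 were log2 ratios of EED-cKO members over other cells. Batch 4 stood apart for the fibroblast list (1.83, others -0.82 to -0.58) and for Tnfrsf11a (-0.21). Batch 8 did so for the cTEC list (-1.52), the keratinocyte list (-0.85), Irak3 (5.47), Gm36988 (4.90) and Eed (-0.03, others 0.51 to 0.53). Batch 9 did so for the tuft list (-2.70), Hoxa9 (-6.40), Lama5 (0.41), Ly6a (1.28), Pcna (0.96, others -0.49 to -0.32) and Tagln2 (0.84), and batch 3 for Fn1 (-1.06).

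Ratios of all 4 EED-cKO batches lay on the opposite side of 0 from those of the 3 Aire/EED-dKO batches with members for 4 values, or 2.31% of those looked at. These were the keratinocyte list (mean over EED-cKO batches less mean over Aire/EED-dKO batches of -2.29), Oas2 (3.91), Depdc1a (4.78) and Rgs7bp (-6.41). Oas2, Depdc1a and Rgs7bp were among the genes listed above because their ratios differed most between the genotypes. Their opposite sides follow in part from that choice. Genes listed for the same sign in every batch could not be flagged. The share of 2.31% is therefore no estimate of how often signs differ. The differences were not tested.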

How the results depend on the processing

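Between the genotypes no paired analysis was possible because no label pairs their cells or batches, and no test was made. Members and other cells share batches, and the mean of their within-batch ratios was 1 of the alternatives. The share of members from EED-cKO (76.7%) and the member shares among neighbors moved little under the alternatives run for them. Of the percents of genes at least 2-fold higher or lower, 93.7% stayed within 1.5 times the reported ones. With 1 CPM added, 3.28% and 7.46% of genes were higher and 14.9% and 10% lower in EED-cKO and Aire/EED-dKO, and 5.45% lower in both. With no minimum of reads, 1.82% were higher and 8.89% lower in both. The mean of within-batch ratios left 7.97% higher in Aire/EED-dKO. With 25% of cells required, 12.3%, 12.1% and 7.54% were lower in EED-cKO, Aire/EED-dKO and both.

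List medians of at least 2-fold changed sign in 3 values, and smaller ones in 59 of 1036 (5.69%). The mTEC-low median in Aire/EED-dKO was 1.78 (TMM), 1.81 (DESeq2 size factors, and without fibroblast-high cells), 1.62 and 1.80 (40 and 80 cells), 1.91 (score without Krt5), 1.96 (without cycling-high cells), 1.94 (without the Aire-high member) and 1.78 to 1.90 with a batch left out. The mature median was -0.26 in EED-cKO under both scalings and -0.95 to -0.76 in Aire/EED-dKO with a batch left out. TMM moved the median of all genes from -0.23 to -0.10 in EED-cKO and from -0.06 to -0.13 in Aire/EED-dKO. The EED-cKO cycling median was 1.73 (mean of cells), 1.08 and 1.86 (40 and 80 cells), 1.19 (scaled score), 1.12 (day 4), 1.72 (thinned) and -0.32 without cycling-high cells, and the Aire/EED-dKO one ran from -2.83 (without batch 7) to 0.78. The fibroblast median in EED-cKO was -0.66 without cycling-high cells and -0.45 (without batch 4) to 1.60 with a batch left out.

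Single genes of at least 2-fold changed sign in 19 values, and smaller ratios in 90 of 1690 (5.33%). Psca in Aire/EED-dKO gave -0.42 (within-batch) and -4.23 (without batch 1) to 4.20, Ivl -0.13 (thinned) and -0.01 (without batch 1) to 1.96, and Ccnb1 0.33 (80 cells). Without cycling-high cells, EED-cKO gave -0.94 for Ccnb1, -1.30 for Phf19, -0.58 for Top2a and -0.12 for Twist2, and Ccn2 ran from -0.17 (without batch 3) to 2.97. Without the Aire-high member, Aire, Cd3e, Cd3g and Ptprc in Aire/EED-dKO gave -1.50, -0.65, -3.93 and -3.05, and without batch 7 -1.29, -0.52, -3.75 and -2.48, against at most 3.62, 2.17, 1.98 and 2.53 without another batch. The within-batch mean of Cd3g was -0.87. Apart from these constructions, the cause was not tested. The 25% minimum, thinning and leaving out fibroblast-high, Aire-high or top-scoring cells were chosen after seeing the data. Depth limits sparse genes, where single cells can set a value, as for Psca and Ivl.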
